A study of Gasterosteus aculeatus with 18 samples.

Results

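The 100 genes with the highest mean value over 18 libraries of threespine stickleback (Gasterosteus aculeatus) embryos were examined, out of 17253 genes in the deposited table. They were chosen by averaging all 18 columns of the table of normalized values and taking the 100 highest means. That high level is therefore the criterion of choice and not a result. All 100 genes passed the filter on low values, as did 16103 genes of the table. The table names genes by Ensembl identifier only, and 0 of the 100 were found in the reference gene table used here, so the genes are described by identifier and without a function.

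In any cell a small part of the genes supplies a large part of the mRNA. In animal embryos such abundant transcripts commonly come from genes of the ribosome, the cytoskeleton and the mitochondrion. Fish embryos begin development on mRNA that the mother stored in the egg, which is cleared as the embryo's own genome becomes active. Cortisol, the main glucocorticoid of fish, also reaches the egg from the mother and acts on genes through the glucocorticoid receptor. Because every library is a share of a fixed amount of sequencing, a larger share for the abundant transcripts leaves a smaller share for the rest.

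Each library came from a pool of 10 wild type eggs taken 72 hours after fertilization, and no other tissue or age was sampled. The 6 control pools received 0 µg/L cortisol, the 6 low pools 5 µg/L and the 6 high pools 10 µg/L. In the series' design text these doses stand for a baseline level, the level that a predator induces in mothers and a level above the physiological range. Replicates are numbered 1 to 6 in each group. Neither a clutch nor a mother is given for a number or a pool in the labels, so p-values measure only the spread between these pools.

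The deposited totals ran from 8.36 to 15.2 M per library, and the reads behind them, estimated from the rounding of the values, from 9.66 to 12.4 M. The estimated scaling factor of the authors lay between 0.7995 and 0.8465 in replicate number 1, between 0.719 and 0.8965 in number 6 and between 1.181 and 1.244 in number 5. It also differed between pools of the same number, from 0.975 to 1.223 in number 2 and from 0.9575 to 1.308 in number 3. The low pool had the lowest factor in numbers 2, 3, 4 and 6, the high pool in number 1 and the control pool in number 5. The factor of low pool 4 was not estimated clearly. The scale of the table thus moved with the replicate number and also between dose groups within a number, and 2 scales are used below. Values as deposited carry that factor, also in the dose comparisons, whereas the share divides each value by the whole column total. The lowest value of any of the 100 genes in any library was 4196, for ENSGACG00000019593 in low pool 1, which corresponds to about 5190 reads and a counting error of 1.39%. This estimate covers counting error only.

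The mean value fell from 125106 for the first gene, ENSGACG00000002182, to 18855 for the last, a ratio of 6.64. The mean share of the column total ran from 1.08% to 0.157% with a median of 0.255%, and 10 of the 100 genes held at least 0.5%. These are shares of reads without correction for transcript length, so they do not rank the genes by number of molecules. At the border of the choice, ENSGACG00000014689 (mean value 19007) and ENSGACG00000008021 (18855) were just inside, and ENSGACG00000017032 (18120) and ENSGACG00000002088 (17728) just outside. The 4 genes around the border thus had means that differed by less than their range over pools.

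Each pool entered the mean that chose the list, so an overlap with the highest genes of a single pool is favoured by the choice. Between 80 and 97 of the 100 genes were also among the 100 highest of a single library, with the fewest in low pool 1 and the most in high pool 4. Of the 100 genes, 57 were among the 100 highest in all 18 libraries, and the least regular gene was in 7 of them. ENSGACG00000002182 was the first gene in 15 of 18 libraries. The exceptions were control pool 1 and low pool 1, led by ENSGACG00000007836, and control pool 2, led by ENSGACG00000006034.

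Together the 100 genes held 30.2% ± 6.46 (SD, n = 18) of the column total. In the control pools 1 to 6 their summed share was 21.9%, 30.7%, 35.4%, 34.8%, 35.5% and 24.2%. In the low pools 1 to 6 it was 20.4%, 27.6%, 31.0%, 34.1%, 39.5% and 22.6%. In the high pools 1 to 6 it was 22.0%, 27.8%, 36.2%, 35.5%, 39.8% and 24.3%. The ranges of the 3 groups overlapped, with low pool 5 and high pools 3 and 5 above every control pool. Pools with the same number were mostly close, with low pool 3 below the other pools of number 3 and control pool 5 below the other pools of number 5. In a bulk pool, fewer cells of a type and less RNA per cell cannot be told apart.

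**Figure D1:**
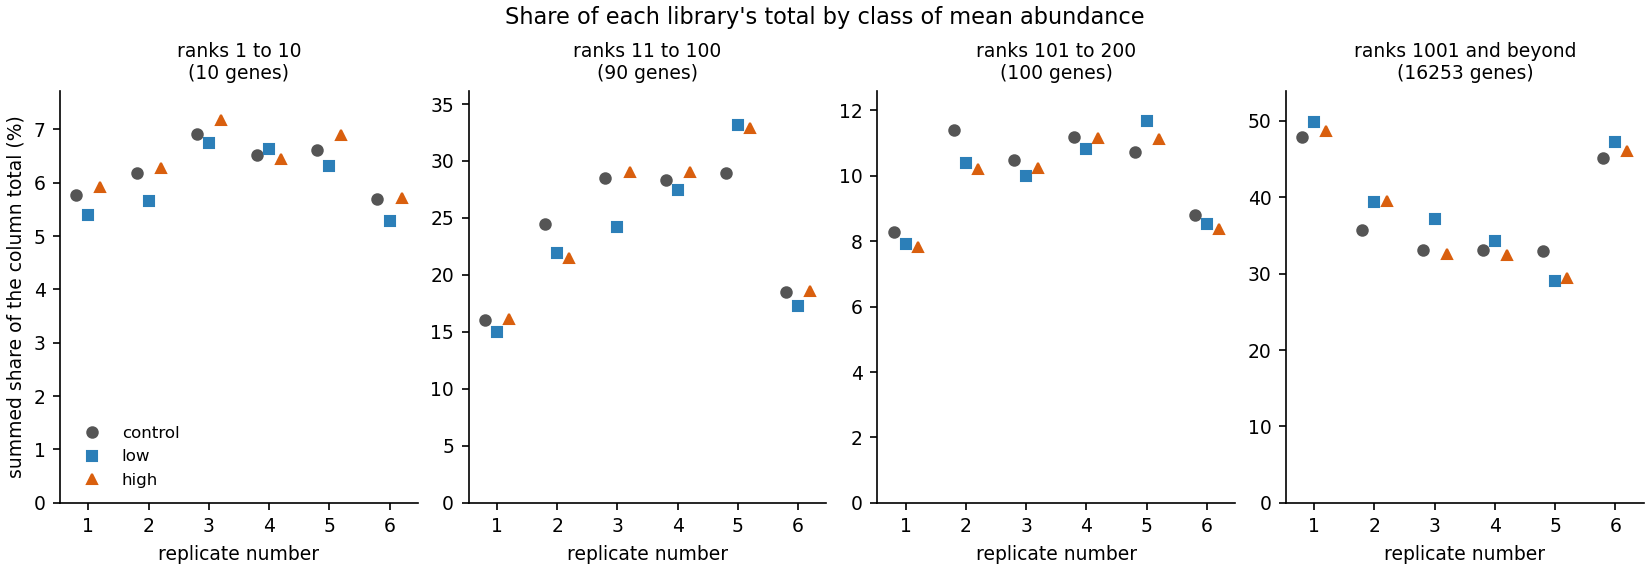
Summed share of the column total (percent, vertical axes starting at 0) of genes grouped by rank of mean value, 1 group of ranks a panel, against the replicate number, with 1 marker for each of the 18 pools and its shape and colour giving the dose group. The 10 first genes stay between 5.28% and 7.18%, the 90 genes at ranks 11 to 100 spread from 15.01% to 33.2% with number 5 highest, and the genes beyond rank 1000 run the opposite way.

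The summed share followed the replicate number. It was 21.4% ± 0.883 in number 1, 28.7% ± 1.73 in number 2, 34.2% ± 2.81 in number 3, 34.8% ± 0.701 in number 4, 38.3% ± 2.39 in number 5 and 23.7% ± 0.953 in number 6 (mean ± SD, n = 3 pools each). Numbers 1 and 6 were the lowest and number 5 the highest, a ratio of 1.79 between number 5 and number 1. The order of neighbours is not clear everywhere, since numbers 3 and 4 differed by less than the SD of number 3. The number of genes that made up 50% of the column total differed in the same way, since this amount was reached by 179 genes in high pool 5 and by 880 genes in low pool 1.

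The difference between replicate numbers was small in the summed share of the 10 highest genes, where single genes differed in both directions. Of these genes, 3 had a lower mean share in number 5 than in number 1. The 10 highest held 5.70% ± 0.272 in number 1 and 6.61% ± 0.287 in number 5, a ratio of 1.16. The genes at ranks 11 to 50 held 9.11% ± 0.331 in number 1 and 17.6% ± 1.02 in number 5 (ratio 1.93), and those at ranks 51 to 100 held 6.62% ± 0.295 and 14.1% ± 1.38 (ratio 2.13). Outside the 100 genes the ratio was 1.39 for the next 100 ranks, 0.923 for the ranks after those up to 1000 and 0.624 for all later ranks. On the share scale the genes beyond rank 1000 thus differed in the opposite direction and held 48.8% in number 1 and 30.5% in number 5. Shares of a column sum to a fixed total, so a lower share here goes with the higher share of the first ranks. As deposited, the median difference between these numbers over all genes tested was 0.0173 in log2 values.

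Because the genes were chosen on the same columns, and on a scale that gives number 5 more weight than number 1, part of this pattern is favoured by the choice. The 100 genes highest in the 3 columns of number 1 alone had 83 genes in common with the list. Their summed share was 22.2% ± 0.739 in number 1 and 35.0% ± 1.65 in number 5, a ratio of 1.58. Lists chosen on the columns of any other single number gave ratios from 1.69 to 1.83. The direction held even for the list whose choice favours number 1, with a smaller ratio.

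Single genes showed the same order in large part. On the share scale 63 of the 100 genes had their highest mean in number 5, against 5.92% of all genes tested, and 22 had it in number 3, against 9.75%. Of the 100 genes, 63 had their lowest mean in number 1, against 11.1% of all genes tested, and 20 had it in number 6, against 4.9%. All 3 pools of number 5 lay above all 3 of number 1 for 83 of the 100 genes (12.9% of all genes tested) and below them for 4 (61.3%). On the deposited scale these counts were 96 (34.9%) and 0 (33.8%).

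The median difference between number 5 and number 1 over the 100 genes was 1.70 in log2 values as deposited, beside 0.017 over all genes. On the share scale it was 0.95, beside -0.73 over all genes. The 2 scales differ by the column totals, and the distance between the 100 genes and all genes was 1.68 and 1.67. The mean share was higher in number 5 than in number 1 for 92 genes, and more than double for 48 of them. It was lower for 8 genes.

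**Figure D2:**
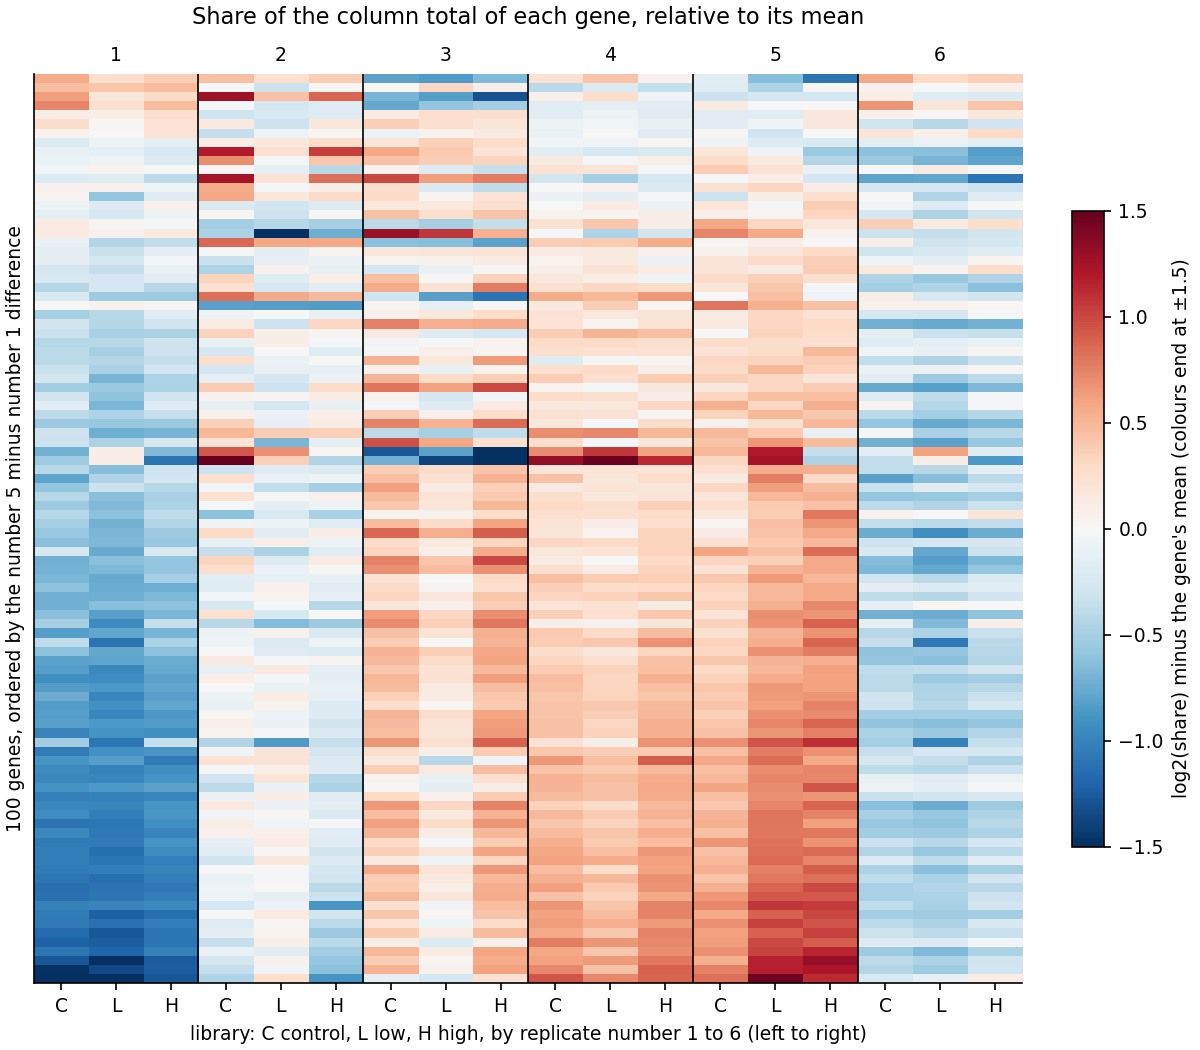
Share of the column total of each of the 100 genes (rows) in each pool (columns, by replicate number and within it control, low and high), as log2(share) minus the mean of the gene, with colours that end at ±1.5. Rows are sorted by the difference between numbers 5 and 1, which is above 0 for 92 genes and below 0 for 8.

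Each gene's log2 values were divided into parts that follow the replicate number, the dose group and the remainder. The part that followed the number had a median of 93.8% over the 100 genes (range 71.6% to 97.6%), beside 80.1% over all genes. The part that followed the dose group had a median of 1.34%, beside 4.21%, and the remainder 4.38%, beside 13.3%. The parts of a gene add up to 100%, so a larger part along the number leaves less for the dose group and the remainder. The smaller dose part thus does not show that these genes follow the dose less than others. An F test over the 6 numbers in limma, with the dose group as a term and Benjamini-Hochberg adjustment, called 100 of the 100 genes, against 89.2% of all genes. A call on this test is thus close to the rule for the whole table.

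The total spread of the 100 genes also exceeded that of the table on the deposited scale, with a median SD of 0.78 in log2 values beside 0.44 over all genes. On the share scale the medians were 0.51 and 0.51, and the number still followed 92.5% of the variance of the 100 genes beside 82.7% over all genes. The larger spread as deposited was thus not seen on the share scale, whereas the larger part along the number was seen on both. All genes tested include genes just past the filter on low values, where counting error is larger than in the 100 genes. Counting error enters the spread and the remainder, and no set of genes of similar level was compared. How far the larger part along the number goes with the high level alone was not tested.

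**Figure D3:**
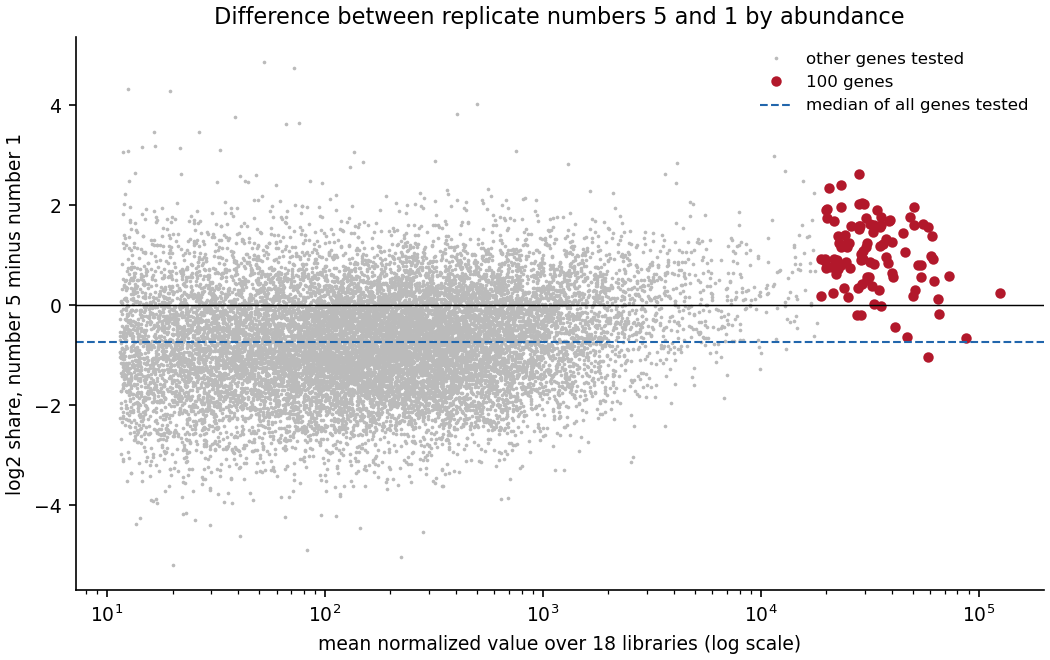
Difference of log2 share between replicate numbers 5 and 1 (vertical axis) against the mean normalized value over 18 libraries (log axis) for the 100 genes, all other genes tested and, as a dashed line, the median of all genes tested. The 100 genes have a median of 0.95 and all genes a median of -0.73, and 8 of the 100 genes have a lower mean share in number 5 than in number 1.

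Among the 10 highest genes, several kept nearly level shares. ENSGACG00000002182 held a mean share of 1.03% in number 1, 0.914% in number 2, 1.22% in number 3, 1.09% in number 4, 1.22% in number 5 and 1.01% in number 6. Its values ran from 78453 to 211940 over the 18 pools, and most of that range was the scale of the columns, since its highest share was 1.59 times its lowest. ENSGACG00000013530 was flatter by number, with mean shares from 0.531% to 0.659%. Its SD of 0.25 in log2 values as deposited was the smallest of the 100 genes, followed by ENSGACG00000007836 at 0.25 and ENSGACG00000014559 at 0.31. A small SD as deposited is not a level share, since the share of ENSGACG00000007836 was lower in number 5 than in number 1. On the share scale the smallest SD of the 100 genes was 0.17. ENSGACG00000012793 had its lowest share in number 1 at 0.453% and its highest in number 5 at 0.631%, but number 6 stood high as well, at 0.597%.

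The other genes of the first 10 went different ways. ENSGACG00000016489 had the widest step among them between the extremes, with 0.257% in number 1 and 0.673% in number 5. ENSGACG00000015957 held 0.320% and 0.639% in these numbers and ENSGACG00000020692 held 0.340% and 0.643%. In all 3 genes numbers 3, 4 and 5 were high and numbers 1 and 6 low, as in the summed share. ENSGACG00000004055 peaked in number 3 at 0.907% and was lowest in number 6 at 0.356%. ENSGACG00000020935 was highest in number 2 at 0.708%, close to number 3 at 0.700%, and also lowest in number 6, at 0.337%.

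ENSGACG00000007836, ENSGACG00000013530 and ENSGACG00000009649 were the 3 of the first 10 whose share was lower in number 5 than in number 1. ENSGACG00000007836 held 1.05% in number 1 and 0.671% in number 5. ENSGACG00000009649 held 0.297% in number 3 and 0.338% in number 5 but 0.600% to 0.674% in the other 4 numbers. It was not alone in this, since 7 of the 100 genes had their lowest mean in number 3 on the share scale, against 22.2% of all genes. ENSGACG00000006034 was also lowest in numbers 3 and 5 in each dose group. Its values in the control pools were 65130, 81470, 38671, 76304, 58639 and 68625, and the low and high pools were again lowest in numbers 3 and 5. This pattern was thus present in all 3 dose groups.

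The genes with the largest spread as deposited differed widely between the numbers. ENSGACG00000006703, at rank 65, had an SD of 1.17 in log2 values and held 0.069% in number 1, 0.344% in number 4 and 0.427% in number 5. Its values in the control pools were 5291, 16381, 23163, 47337, 43958 and 14789, and in the low pools 5600, 23816, 18095, 38400, 79661 and 15221. In the high pools they were 6712, 10829, 30984, 46901, 63458 and 18389. All 3 groups were lowest in number 1 and the low and high groups highest in number 5, while the control group was highest in number 4. ENSGACG00000015499, at rank 79, followed with an SD of 1.13 and shares of 0.063% in number 1 and 0.334% in number 5. ENSGACG00000013873 came next in spread, with another order of the numbers. Its share was 0.079% in control pool 3 and 0.327% in control pool 4. It was 0.050% and 0.365% in these numbers of the low group and 0.042% and 0.286% in those of the high group.

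Several genes stood out in 1 replicate number. ENSGACG00000015309, at rank 77, was the gene most in excess in number 3, by 1.39 in log2 values as deposited over the mean of the other numbers. It reached 59837 in control pool 3, 43762 in low pool 3 and 36788 in high pool 3, and its lowest value was 6018 in low pool 2. ENSGACG00000006034, at rank 21, was most in excess in number 2, by 0.98, with 110801 in control pool 2, 55194 in low pool 2 and 74491 in high pool 2. The first excess was the highest of its group in all 3 dose groups, whereas for the second the low pool of number 4, at 57198, lay above that of number 2. In numbers 4 and 5 the genes most in excess were ENSGACG00000013873 and ENSGACG00000006703, each by 1.80.

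The genes most tightly tied to the number were not those with the largest spread. ENSGACG00000020072, at rank 36, had 97.6% of its variance along the number and mean shares by number between 0.277% and 0.372%. ENSGACG00000017702 (97.5%) and ENSGACG00000005067 (97.2%) came next. At the other end, ENSGACG00000013533 had 71.6% along the number, ENSGACG00000007836 71.7% and ENSGACG00000003441 73.9%. ENSGACG00000013533 was also the gene most in excess in numbers 1 and 6 as deposited, by 0.11 in each. On the share scale the highest excess of any of the 100 genes was 0.57 in number 1 and 0.51 in number 6.

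The first dose comparison asks what the level of cortisol that a predator induces in mothers does to the embryo. The summed share of the 100 genes was 30.4% ± 6.04 in the control group and 29.2% ± 7.16 in the low group (SD, n = 6 each). Within replicate numbers 1 to 6, low minus control was -1.45, -3.06, -4.43, -0.754, 3.96 and -1.61 percentage points. The low pool was thus below the control pool in 5 of 6 pairs and above it in number 5, and the mean difference of -1.22 ± 2.86 points was smaller than its own SD. Without number 5 the mean difference was -2.26 points.

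Single genes had the same sign in the means of log2 values. Low was below control for 94 of the 100 genes as deposited, against 49.4% of all genes, and for 69 on the share scale, against 32.2%. The median difference was -0.11 as deposited (all genes 0.0020) and -0.04 on the share scale (all genes 0.07). These genes moved together from pool to pool, so the counts here and in the dose comparisons below do not stand for as many separate observations. By number the median over the 100 genes was -0.13, -0.27, -0.46, -0.13, 0.44 and -0.15 as deposited, again with number 5 on the other side.

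No gene of the 100, and no gene of the table (0%), was called between low and control in limma with Benjamini-Hochberg adjustment at 0.05. At an unadjusted p under 0.05 the fit without the replicate block had 0 of the 100 genes and 78 of the 16103 genes tested. With the replicate number as a block it had 13 of the 100 and 1782 of the 16103 genes tested, and 0 were called. The 13 genes lie near the share of the whole table. The genes of the list with the smallest p in each direction in the blocked limma fit were ENSGACG00000018175, at -0.29 ± 0.093 (SE) in log2 values with an adjusted p of 0.250, and ENSGACG00000013902, at 0.41 ± 0.16 with an adjusted p of 0.358. With number 5 left out, which was done after its direction had been seen, 6 of the 100 genes were called in the blocked fit, all lower in the low pools, against 2.31% of all genes (80 higher and 292 lower). With weights for sample quality and all pools, 13 were called, 12 of them lower, against 6.63% of all genes (317 higher and 750 lower).

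The comparison of the high dose with control asks about a level above the physiological range. The summed share was 30.9% ± 7.23 in the high group (n = 6). High minus control was 0.157, -2.91, 0.769, 0.647, 4.31 and 0.077 percentage points in numbers 1 to 6. Of these, 5 of 6 were above 0, but 4 of those 5 were under 1 point, and the mean of 0.507 ± 2.30 points was far inside its SD. Without number 5 it was -0.253 points, so the sign of the mean rested on that number.

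High was above control for 75 of the 100 genes in the means of log2 values as deposited, against 48% of all genes, and for 74 on the share scale, against 42.8%. The median difference was 0.08 as deposited (all genes -0.0087) and 0.06 on the share scale (all genes -0.03). In numbers 1 to 6 the median as deposited was 0.03, -0.33, 0.14, 0.09, 0.47 and 0.01. Number 5 thus had the largest difference and number 2 one of the other sign. No gene of the table was called without the replicate block (0%), with 158 of the 16103 genes tested and 0 of the 100 at an unadjusted p under 0.05. With the block, limma called 188 genes of the table (1.17%, with 0.727% higher and 0.441% lower) and 0 of the 100. In that fit ENSGACG00000017982 stood at 0.27 ± 0.13 (adjusted p of 0.293) and ENSGACG00000013873 at -0.80 ± 0.24 (adjusted p of 0.108), the smallest p in each direction.

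Between the 2 doses, pools of the same number differed in 1 direction. High minus low in the summed share was 1.60, 0.144, 5.20, 1.40, 0.344 and 1.69 percentage points in numbers 1 to 6. The high pool was thus above the low pool in 6 of 6 pairs, with a mean of 1.73 ± 1.82 points, although the differences in numbers 2 and 5 were small. With the 10 highest genes left out the high pool was above in 4 of 6 pairs, by 1.33 points on average. The low group enters both this comparison and that with control, so these comparisons are not independent.

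**Figure D4:**
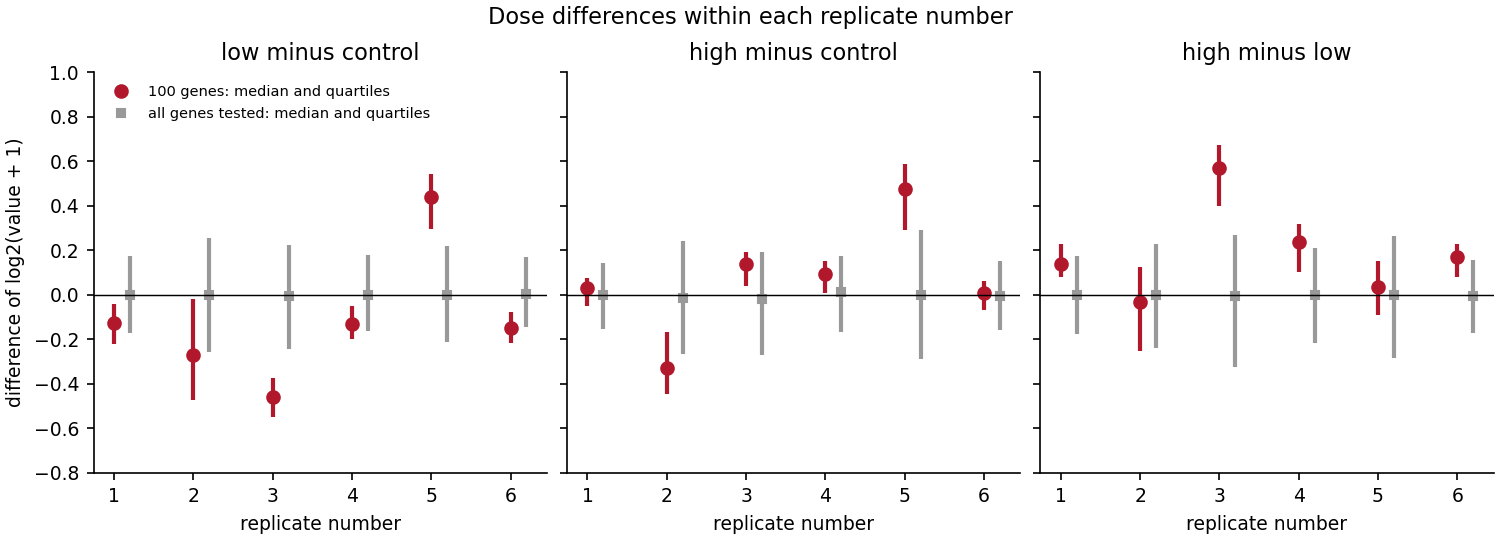
Difference of log2(value + 1) between pools of the same replicate number (horizontal axis) for the 3 dose comparisons, 1 a panel, with points for medians and bars for quartiles over the 100 genes and over all genes tested. The median of the 100 genes lies below 0 in 5 of 6 numbers for low minus control, and above 0 in 5 of 6 for high minus low.

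High was above low in the means of log2 values for 94 of the 100 genes as deposited, against 48.6% of all genes, and for 79 on the share scale, against 31%. In 21 of the 100 genes the high pool exceeded the low pool in 6 of 6 pairs, against 7.02% of all genes, and in 1 it was below in 6 of 6, against 6.41%. On the share scale these counts were 16 (3.61%) and 3 (11.1%). Since the genes moved together from pool to pool, such counts are not separate observations. The median difference was 0.17 as deposited and 0.09 on the share scale, beside -0.0066 and -0.09 over all genes. By number the medians as deposited were 0.14, -0.03, 0.57, 0.24, 0.04 and 0.17, so that number 3 had the largest difference and number 2 a small one of the other sign. On the share scale the median in number 3 was 0.28, again the largest. When 1 pool was left out and its number was thus uneven between groups, the median changed sign in each of the 3 dose comparisons, here to -0.037 without low pool 1 and -0.019 without high pool 5.

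Without the replicate block limma called 0 of the 100 genes and 0 of all genes (0%) between high and low. At an unadjusted p under 0.05 that fit had 0 of the 100 and 385 of the 16103 genes tested. With the block it called 1300 genes of the table (8.07%) and 7 of the 100. Of these, 5 were higher at the high dose, against 4.35% of all genes, and 2 were lower, against 3.73%. A count of 7 in 100 lies near the share of the whole table. With columns scaled to equal totals the split over all genes was 302 higher and 664 lower, in place of 700 and 600, and that of the 100 genes was again 5 and 2. For 0 of the 100 genes did the 6 high pools lie all above the 6 low pools or all below them, against 0.0124% of all genes in each direction.

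ENSGACG00000017982, at rank 37, had values of 10080, 14677, 34280, 33063, 74114 and 11017 in the low pools 1 to 6. In the high pools it had 17180, 20927, 65232, 54834, 83546 and 17785, and in the control pools 15504, 22028, 53569, 38222, 53198 and 16368. The high pool exceeded the low pool in 6 of 6 pairs, and control lay above low in 5 of 6, number 5 being the exception. The difference between high and low was 0.63 ± 0.13 (SE) in log2 values with an adjusted p of 0.00567 in the blocked limma fit.

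ENSGACG00000003800, at rank 59, had values of 11303, 17150, 27474, 32111, 46931 and 11714 in the low pools and of 16673, 21515, 46598, 38788, 62143 and 16394 in the high pools. The control pools had 16874, 21188, 38069, 33044, 44634 and 17888. High exceeded low in 6 of 6 pairs, and numbers 1, 2 and 6 of the control group were close to the high pools. The difference between high and low was 0.47 ± 0.10 with an adjusted p of 0.0110 in the blocked limma fit. It was 0.0531 without number 1 and 0.0619 without number 3, and under the threshold without any single pool.

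ENSGACG00000013902, at rank 46, went the other way. Its values were 20785, 38906, 15191, 59098, 80845 and 30813 in the low pools and 12622, 24859, 6595, 47405, 27737 and 18321 in the high pools. In the control pools it had 12375, 52571, 12778, 48965, 42630 and 19162, which lay between low and high in numbers 3 to 6. The high pool was below the low pool in 6 of 6 pairs. The difference was -0.86 ± 0.16 with an adjusted p of 0.00352 in the blocked limma fit, and its share varied 11.3-fold over the 18 pools, the widest range of the 100 genes.

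ENSGACG00000013873, at rank 98, had values of 11775, 17430, 5689, 44556, 47168 and 12101 in the low pools and of 5256, 10016, 5783, 38424, 14538 and 6451 in the high pools. In the control pools it had 7896, 43660, 10556, 42009, 21254 and 9243. High was below low in 5 of 6 pairs and slightly above it in number 3, and number 4 was high in all 3 groups. The difference was -0.79 ± 0.24 with an adjusted p of 0.0481 in the blocked limma fit. In limma fits that left out 1 pool or 1 number it was past the threshold in 7 of 24, with adjusted p-values from 0.0134 to 0.140. The call held without control pools 2 or 5, low pools 2 or 3, high pool 4 or numbers 2 or 3, and was lost without any other pool or number. With all pools and no variance trend it was also lost, at an adjusted p of 0.106 in the blocked limma fit.

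**Figure D5:**
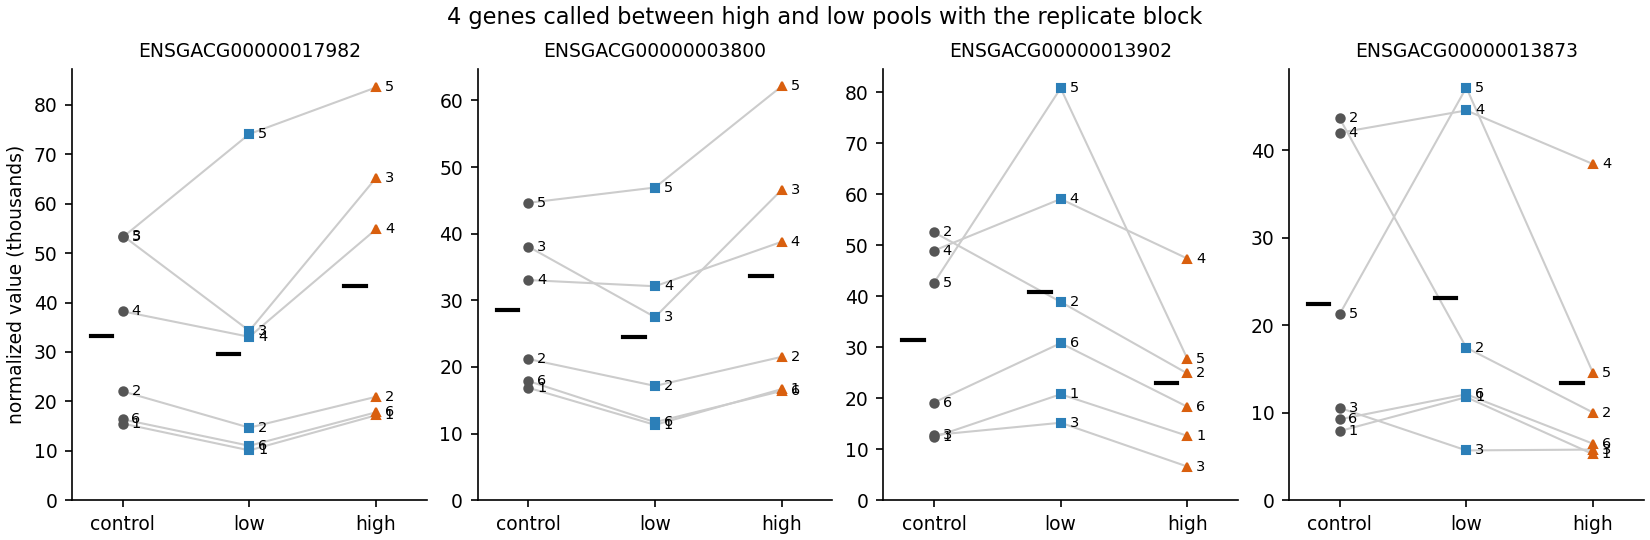
Normalized value as deposited (in units of 1000, axes starting at 0) of the 4 genes named between high and low, in the control, low and high pools. Digits give the replicate number, grey lines join pools of 1 number and black bars are group means (n = 6). Lines from low to high go up in 6 of 6 numbers for ENSGACG00000017982 and ENSGACG00000003800 and down in 6 of 6 for ENSGACG00000013902, while the groups overlap.

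Over all 3 groups, an F test in the blocked limma fit called 3 of the 100 genes, against 5.3% of all genes, and the linear trend over dose called 0, against 0.0248%. At an unadjusted p under 0.05 the blocked trend had 3 of the 100 genes and 2231 of the 16103 genes tested, a smaller share in the 100 genes. Without the block both tests called 0 genes (0%). At an unadjusted p under 0.05 the F test then had 0 of the 100 and 151 of the 16103 genes, and the trend 0 and 166. The order low, control, high from lowest to highest held for the group means of 70 of the 100 genes as deposited, against 20.5% of all genes, and for 45 on the share scale, against 11.1%. An order along the dose, from control over low to high, held for 5 (14.6%) and 24 (12.6%).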

How the data were processed

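The authors deposited 1 table of normalized counts for 17253 genes in 18 libraries, and these are treated as scores, since each value is a whole number that already carries a scaling factor. The submitters' processing notes list Bowtie2 2.1.0, HTSeq, TopHat2 2.0.8, edgeR, Cufflinks 2.2.0, FastQC, Cuffdiff and TopHat, with no step given. A genome build and an annotation are not given in these sources. Every gene exceeds 5 in at least 2 libraries.

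Each column's scaling factor was estimated from the whole-number pattern of values under 300, with a clear optimum (log-likelihood gap of at least 40) in 16 of 18 columns. The optimum was not clear in low pool 4 (factor 0.99) and high pool 2 (1.0015). The largest error on 7 simulated columns was 0.0002. These columns were made with the assumed rounding rule and with no factor as near 1, so they do not test the rule itself. In low pool 5 the rule could give 98.2% of the values under 300, the lowest of the 18 columns. Reads were not recovered, so no count model was fitted. Genes with a mean of at least 11.4 (1e-06 of the mean column total) entered the tests, 16103 genes with 1150 left out. A variance trend was used in limma 3.58.1 under R 4.3.3, fitted to log2(value + 1) of all 18 libraries, with Benjamini-Hochberg adjustment over all genes tested and a threshold of 0.05. This scale understates changes of low genes. The fit without the replicate number is the main one and the fit with it as a block the alternative. The main fit leaves the spread between numbers in its error, a median of 80.1% of the variance over all genes. A lack of calls in it thus does not show that the doses are alike. The procedure was tested on simulated data, drawn with independent noise for each gene and the residual spread of the blocked fit. Genes of the real libraries moved together from pool to pool, so the simulation cannot show the rate of false calls here. Python 3.11.15, NumPy 2.4.6, pandas 2.3.3 and matplotlib 3.10.9 were used for shares and plots.

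Same-numbered libraries correlated, after removal of the group means, with a mean r of 0.78 (0.67 to 0.90), each pair above the limit of 0.1. Libraries of different number and group had a mean r of -0.15 (-0.74 to 0.76), so the ranges overlapped and some of these pairs also passed the limit. The best match of a library was its own number in 36 of 36 comparisons. The numbers were therefore taken to pair the pools. This comes from the data and not from the labels. At most 2.99% of genes were equal in any 2 libraries.

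The 100 genes, the tests and the rule for named genes were chosen with earlier results of these data known. The rule named the 10 highest genes, the genes at the border of the list, the 3 with the largest and smallest spread and part along the number, the gene most in excess in each number, and in each dose comparison up to 2 called genes in each direction, or else the gene with the smallest p in each direction. No gene list by symbol could be used, since the identifiers matched no gene name.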

Additional observations from a re-analysis of the deposited data

Results flagged for a closer look

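Of 48 sets of 6 pools checked for 1 pool far from the others, 1 was past the limit of Dixon's ratio of 0.625, where chance gives 2.4. It was ENSGACG00000013873 in the high group, where high pool 4 had 38424 and the other 5 pools lay between 5256 and 14538 (ratio 0.720). The same gene was at 42009 in control pool 4 and 44556 in low pool 4, so number 4 was high in all 3 groups.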

How the results depend on the processing

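The blocked fit was the setting that changed most. Without the replicate block 0 of the 100 genes were called in each dose comparison, in the F test over the groups and in the trend, under each alternative. With it, low against control gave 0, but 13 with sample weights (6.63% of all genes). Leaving out single pools gave 0 to 5, with 5 without control pool 5 (1.63%) and 2 without low pool 5 (1.05%), and 6 without replicate number 5 (2.31%). High against control gave 0, and 1 with sample weights (3.74%). High against low gave 7 (8.07%), and again 7 with a pseudocount of 5 (8.35%), with no filter (7.59%) and with columns scaled to equal totals (6%). It gave 8 at a threshold of 0.1 (13.4%), 11 with sample weights (15.5%) and 4 with no variance trend (5.32%). Leaving out single pools gave 3 to 11, with 3 without low pool 1, low pool 6, high pool 3 or high pool 5 (3.93% to 4.07%) and 11 without control pool 5 (9.81%). Leaving out replicate numbers 1 to 6 in turn, which was chosen after seeing the data, gave 2, 7, 3, 3, 6 and 3 (4.15%, 8.76%, 3.14%, 6.35%, 6.14% and 4.01%). The F test over the groups with the block gave 3 (5.3%), also with a pseudocount of 5 (5.92%), no filter (5.03%) or no variance trend (2.43%). It gave 7 at a threshold of 0.1 (10.2%), 4 with equal totals (3.33%) and 13 with sample weights (16.1%), and 1 to 10 without single pools, with 10 without control pool 5 (8.08%). Over the 100 genes the median log2 difference of high from low was -0.037 to 0.40 when single pools were left out of the unblocked means, with -0.037 without low pool 1 and 0.40 without low pool 5 or high pool 1. The median of low from control ran from -0.34 to 0.10 and that of high from control from -0.15 to 0.30. Each of these settings leaves the number of the omitted pool uneven between the groups. A change of sign thus cannot be told apart from the difference between replicate numbers. The summed share in the control, low and high groups was 20.04%, 19.1% and 20.4% for 50 genes and 40.6%, 39.1% and 40.7% for 200, and 24.1% in control without the 10 highest. The ratio of number 5 to number 1 was 1.58 for genes chosen in number 1. ENSGACG00000017982, ENSGACG00000003800, ENSGACG00000013902 and ENSGACG00000013873 passed the threshold between high and low with the replicate block only. With the block and no variance trend ENSGACG00000013873 did not pass it. For each change the cause was not tested, beyond the smaller number of pools or the different list of genes that the setting itself brings. The F test over the replicate numbers called 99 or 100 of the 100 genes under each alternative, beside 89.2% of all genes with the main settings. The summed share was higher in number 5 than in number 1 under each choice of genes.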
